A study of Homo sapiens with 8 samples.

Results

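The genes described here encode components of the mTOR pathway. The list holds 36 genes in 6 arms: the mTOR complexes, TSC and RHEB, the Rag GTPases with Ragulator, GATOR1, the PI3K, AKT and LKB1 inputs, and the S6 kinases with the translation factors. Members were taken as probe sets whose single annotated gene symbol was on the list, which gave 32 genes on 37 probe sets, out of 18404 genes on 19158 such probe sets. PRR5 and TBC1D7 shared their probe sets with other symbols, and LAMTOR1 and PIK3CA had none with a single symbol in the annotation used, so these 4 genes were not analysed here as members.

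Levels were measured in HSC39, a human cell line from a signet ring cell carcinoma of the stomach, on 8 whole-transcript Affymetrix arrays, and are given as the log2 values that the authors deposited. Of these arrays, 2 were of cells given TRIM44 siRNA 7, 2 of cells given TRIM44 siRNA 9, and 4 of cells given the AllStars negative control siRNA. Transfection with TRIM44 siRNA was at 100 nM (the labels write nm) and lasted 48 h; the same text stands on the negative siRNA arrays, whose own dose is not stated, and all cells were grown in serum-containing medium. The design text gives 4 biological replicates per condition, with the reagents pooled, but not whether replicates were separate cultures. The p-values therefore cover the spread among these 8 arrays, which may be technical.

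The mechanistic target of rapamycin (mTOR) is a kinase that works in a pair of complexes. Complex 1 sits on the lysosome, where amino acids act through the Rag GTPases and growth factors act through AKT, the TSC complex and the small GTPase RHEB, and it drives protein synthesis by phosphorylating the S6 kinases and the 4E-BP proteins. Complex 2 phosphorylates AKT. Most of this control is of the proteins and their phosphorylation, which RNA levels do not measure.

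TRIM44 itself checked the labels. Its log2 level was 10.85 and 11.27 with siRNA 7, 11.10 and 11.14 with siRNA 9, and 11.91, 12.02, 11.91 and 11.77 with negative siRNA. All 4 TRIM44 siRNA arrays lay below all 4 negative siRNA arrays, with a log2 difference of -0.81 (SE 0.10; 2-sided exact permutation p = 0.0286, the smallest that 70 assignments allow). The reagents differed by -0.06 in TRIM44 (95% interval -0.36 to 0.24). Array medians lay between 6.78 and 6.87 and array pairs correlated at 0.991 to 0.997. The first principal component of all probe sets, with 32.5% of the variance, put negative siRNA array 2 (13.6) beside the siRNA 9 arrays (15.5 and 17.2), and the remaining arrays at -11.8 to -5.57. The 5 epithelial markers had mean log2 levels of at least 10.4 with TRIM44 siRNA and with negative siRNA. The 5 gastric markers were mixed. MUC1 stood at 11.3 with TRIM44 siRNA and 11.5 with negative siRNA, and TFF1 at 9.3 and 9.2. TFF2, CLDN18 and GKN1 stood at 6.4 or lower in either group, below the array medians. Of the markers of other cell types, LYZ was high in both groups, at 11.5 with TRIM44 siRNA and 11.6 with negative siRNA, while the other leukocyte, endothelial and fibroblast markers stood at 7.8 or lower in either group.

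RefSeq promoter windows of build GRCh38.p14, running from 250 bases before to 50 bases after the annotated start, were available for 26 of the 32 measured members. They were searched on both strands for the E-box CACGTG, a palindrome bound by basic helix-loop-helix factors such as MYC, USF and the MITF and TFEB family, which regulates lysosomal and Rag GTPase genes. The E-box was present in the windows of 6 members, EIF4B, EIF4E, NPRL3, RRAGB, RRAGC and TSC2, against 7.26% of all 35116 windows. Its extended form GTCACGTG, which contains the E-box, was present in 4 members, EIF4E, RRAGB, RRAGC and TSC2, against 2.4% of all windows. Members were counted as genes, while the shares are over all windows, which were not limited to the genes measured. Enrichment was not tested, and a match is a description of the letters only. The E-box (in capitals) with its flanks is printed 5′ to 3′ on the gene's strand for each of the 6 members, since RRAGC is the member whose level differed between the reagents and the other 5 are the members that share this element with it.
RRAGC, chr1:38859869-38859894, minus strand: gtgattccggCACGTGacggggcacc
RRAGB, chrX:55717624-55717649, plus strand: gagccaaggcCACGTGatgatgacag
RRAGB, chrX:55717714-55717739, plus strand: tagcggcagtCACGTGacagactccg
RRAGB, chrX:55717746-55717771, plus strand: ggcagatgccCACGTGatcctggcct
TSC2, chr16:2047861-2047886, plus strand: gcggccccgtCACGTGatgcaaggat
NPRL3, chr16:138633-138658, minus strand: cggagcgtggCACGTGggttggtaac
EIF4E, chr4:98929343-98929368, minus strand: acccatcggcCACGTGaccagtcctt
EIF4E, chr4:98929190-98929215, minus strand: acatatccgtCACGTGgccagaagct
EIF4B, chr12:53006424-53006449, plus strand: ccgctataatCACGTGattgcctcat

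The RRAGC and RICTOR windows are given in full up to the start site, because these were the 2 members with the lowest levels under siRNA 7 relative to siRNA 9. In RRAGC the single E-box (capitals) began 112 bases before the start. The RICTOR window held no match to the E-box, to the forkhead motif GTAAACA or to the ATF4 element TGATGCAA. Among the members the forkhead motif was matched once, in STK11 (3.42% of all windows), and the ATF4 element once, in TSC2 (0.866% of all windows), where it shares bases with the E-box.
RRAGC, chr1:38859773-38860022, minus strand: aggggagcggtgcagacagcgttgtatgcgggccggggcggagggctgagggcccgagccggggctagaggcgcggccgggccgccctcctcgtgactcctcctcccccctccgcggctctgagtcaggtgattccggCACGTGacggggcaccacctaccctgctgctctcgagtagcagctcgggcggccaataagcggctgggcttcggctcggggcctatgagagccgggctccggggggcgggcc
RICTOR, chr5:39074400-39074649, minus strand: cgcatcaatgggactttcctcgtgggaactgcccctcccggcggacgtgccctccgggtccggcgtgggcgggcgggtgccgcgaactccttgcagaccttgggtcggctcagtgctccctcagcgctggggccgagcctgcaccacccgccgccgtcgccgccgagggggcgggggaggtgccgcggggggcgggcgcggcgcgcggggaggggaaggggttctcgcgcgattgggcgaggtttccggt

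The first comparison asked whether pathway genes differed between TRIM44 siRNA, with both reagents as 1 group, and negative siRNA. No member passed an adjusted p of 0.05, and differences were small. The largest was PIK3R1 at 0.22 and the most negative was RRAGC at -0.18 on the log2 scale. By limma, 0 of 32 members passed, against 0.00522% of all probe sets, and 1 member, RPS6KB1, had an unadjusted p under 0.05, against 5.43% of all probe sets. The median member difference was -0.02, with 10 members above 0 and 22 below, beside a median of 0.01 over all 18404 genes, of which 9920 were above 0. With the reagents pooled, point estimates were below 0 for 7 of 7 genes of the mTOR complexes (-0.12 to -0.0032) and 3 of 3 of TSC and RHEB (-0.12 to -0.03). None of these 10 genes had an unadjusted p under 0.05 in this comparison. In the mTOR complexes the single reagents did not share the sign throughout, with 3 genes higher and 4 lower with siRNA 7, and 2 higher and 5 lower with siRNA 9. The 3 TSC and RHEB genes were lower with each reagent, none at an unadjusted p under 0.05, although a further RHEB probe set was higher with siRNA 7.

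**Figure D1:**
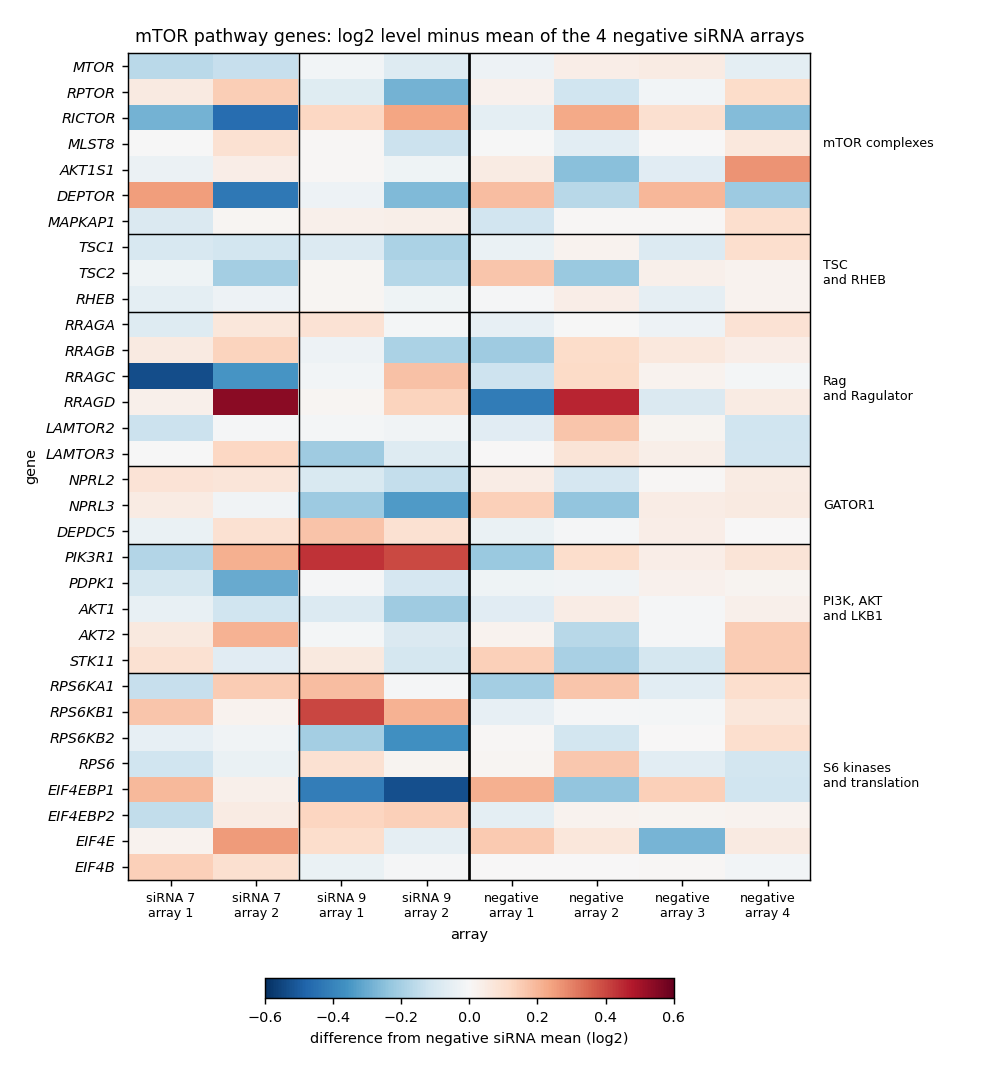
Log2 level of each of the 32 measured members (rows, by arm) on each of the 8 arrays (columns: siRNA 7, siRNA 9, negative siRNA), minus the gene's mean over the 4 negative siRNA arrays; red is higher and blue lower. RRAGC and RICTOR are blue on both siRNA 7 arrays, EIF4EBP1 and NPRL3 are blue on both siRNA 9 arrays and on negative siRNA array 2, and PIK3R1 is red on both siRNA 9 arrays.

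Each reagent was then compared with negative siRNA. With siRNA 7 the lowest members were RRAGC at -0.44 and RICTOR at -0.37, and with siRNA 9 they were EIF4EBP1 at -0.47, RPS6KB2 at -0.29 and NPRL3 at -0.28. The highest were RRAGD at 0.29 with siRNA 7 and PIK3R1 at 0.41 and RPS6KB1 at 0.30 with siRNA 9. None of these passed. By limma, 0 of 32 members passed with siRNA 7 (0.0679% of all probe sets did) and 0 of 32 with siRNA 9 (0.924% of all probe sets did). At an unadjusted p under 0.05 there were 3 members lower with siRNA 7 (4.66% of all probe sets) and 0 higher (2.81%). With siRNA 9 there were 3 lower (5.56% of all probe sets) and 2 higher (8.05%). The median member difference was 0.0048 with siRNA 7 and -0.02 with siRNA 9, beside -0.0022 and 0.02 over all genes. The 2 comparisons share the 4 negative siRNA arrays. In simulated data, a small part of the 19158 probe sets was shifted equally in both reagents, with independent noise. There, 0% of added log2 shifts of 0.3 were recovered with either reagent, so differences of that size could be missed. The share recovered depends on how many probe sets differ, and the share for these arrays was not tested.

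**Figure D2:**
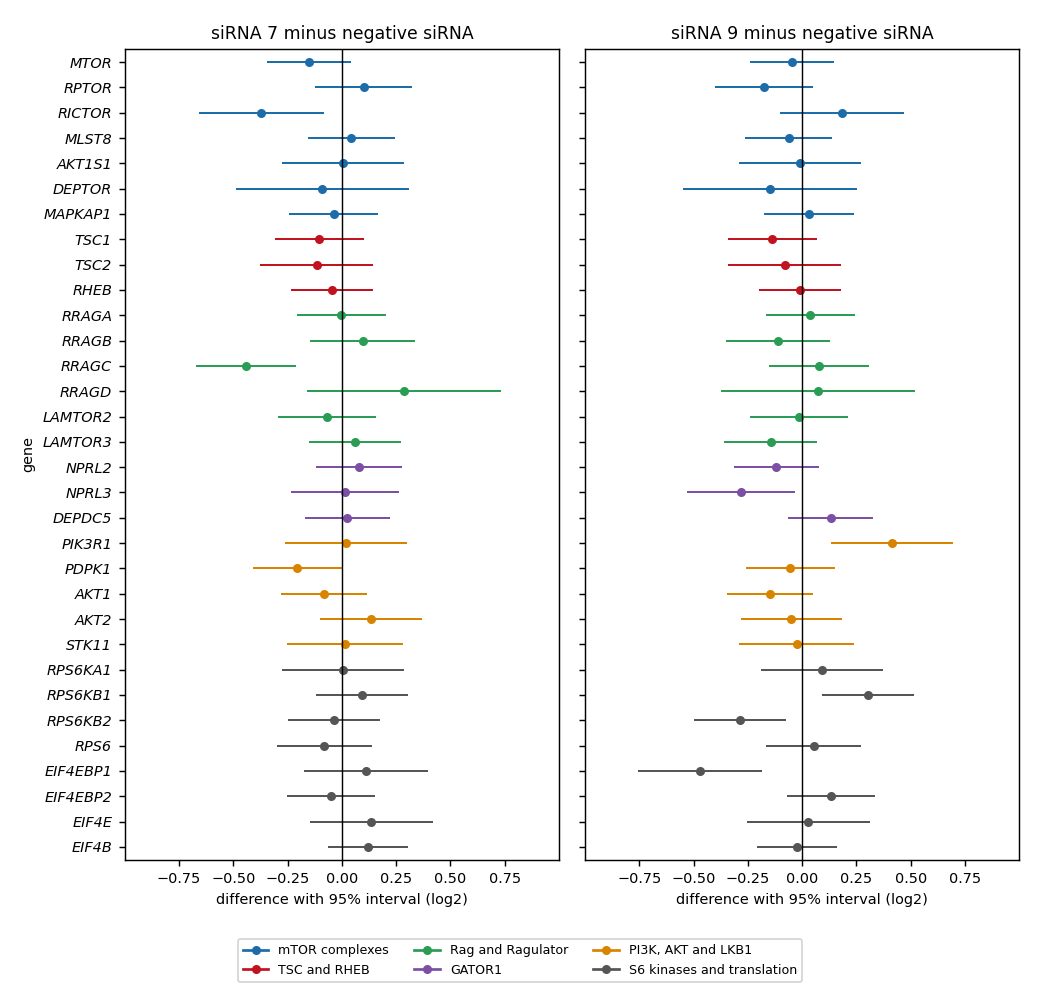
Difference from negative siRNA of each measured member (log2, x axis) with its 95% interval from the limma fit, for siRNA 7 (left) and siRNA 9 (right); colours mark the arms. Intervals exclude 0 for RRAGC, RICTOR and PDPK1 with siRNA 7 and for NPRL3, PIK3R1, RPS6KB1, RPS6KB2 and EIF4EBP1 with siRNA 9, before adjustment over all probe sets.

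The reagents, a pair of siRNAs against the same gene, were also compared directly. RRAGC was the 1 member of 32 past the threshold, against 2.23% of all probe sets, and was lower with siRNA 7. At an unadjusted p under 0.05 there were 4 members higher with siRNA 7 than with siRNA 9 (EIF4EBP1, RPTOR, NPRL3 and RPS6KB2; 6.15% of all probe sets) and 3 lower (RICTOR, RRAGC and PIK3R1; 9.58%). Member differences ran from -0.55 to 0.58, with a median of 0.02 beside -0.03 over all genes. The median size of the difference, without its sign, was 0.14 over the members and 0.12 over all genes.

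**Figure D3:**
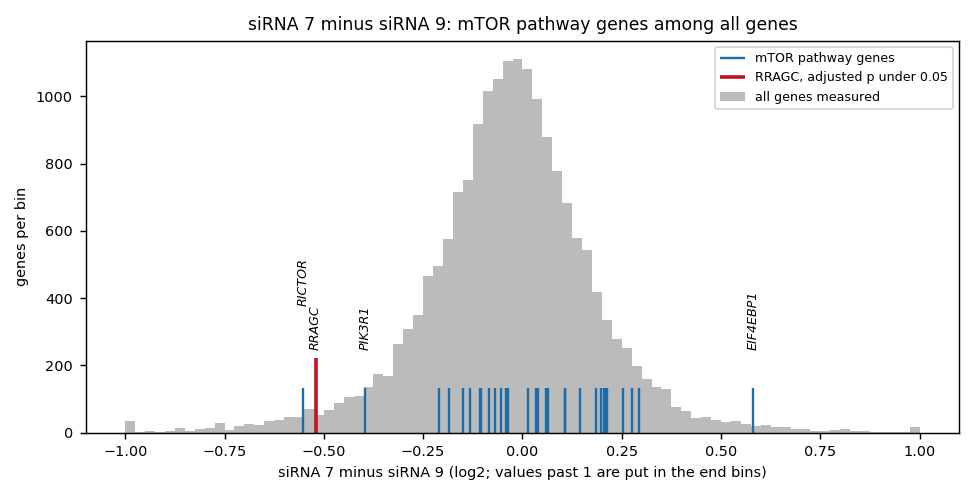
Number of genes per bin (y axis) by the difference between siRNA 7 and siRNA 9 (log2, x axis) for all 18404 genes (grey), with the 32 members as vertical lines. RICTOR, RRAGC and PIK3R1 lie towards the left end and EIF4EBP1 towards the right end; RRAGC (red) is the member with an adjusted p under 0.05.

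Among the Rag GTPases, which work as pairs of RagA or RagB with RagC or RagD and recruit mTOR complex 1 to the lysosome, RRAGC (RagC) differed between the reagents and its partners did not pass. RRAGC stood at 8.59 and 8.77 with siRNA 7, at 9.10 and 9.29 with siRNA 9, and at 8.99, 9.23, 9.14 and 9.11 with negative siRNA. Both siRNA 7 arrays were below all other 6 arrays, and the siRNA 9 arrays overlapped the negative siRNA arrays. RRAGC averaged 8.68 ± 0.13 in the siRNA 7 arrays and 9.20 ± 0.13 in the siRNA 9 arrays (SD, n = 2 each), a log2 difference of -0.52 (SE 0.12, 95% interval -0.78 to -0.26, limma adjusted p = 0.0476), or 69.7% of the level. The siRNA 7 mean differed by -0.44 (adjusted p = 0.193), and the siRNA 9 mean by 0.08 (adjusted p = 0.835), from the negative siRNA mean of 9.12 ± 0.10 (SD, n = 4). The call between the reagents was lost without siRNA 7 array 1 (adjusted p = 0.205) or array 2 (0.115), siRNA 9 array 1 (0.196) or array 2 (0.326), and negative siRNA array 1 (0.0557), array 3 (0.0862) or array 4 (0.0504). It was also lost when all probe sets were tested (0.131) and after median centring (-0.50, adjusted p = 0.0745).

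RRAGD (RagD), the close relative of RRAGC, varied most among the negative siRNA arrays of all members. It stood at 8.35 and 8.86 with siRNA 7, at 8.33 and 8.45 with siRNA 9, and at 7.90, 8.78, 8.23 and 8.37 with negative siRNA. The 3 groups overlapped, and the difference of 0.29 with siRNA 7 (95% interval -0.15 to 0.73, limma adjusted p = 0.872) was 0.03 without siRNA 7 array 2 and 0.54 without siRNA 7 array 1. RRAGA and RRAGB differed from negative siRNA by -0.0038 and 0.10 with siRNA 7 and by 0.04 and -0.11 with siRNA 9. The Ragulator genes LAMTOR2 and LAMTOR3, part of the scaffold that holds the Rag proteins on the lysosome, differed by -0.07 and 0.06 with siRNA 7 and by -0.02 and -0.15 with siRNA 9. None of these 4 genes passed in any comparison, and their lowest adjusted p was 0.408, for LAMTOR3 between the reagents.

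**Figure D4:**
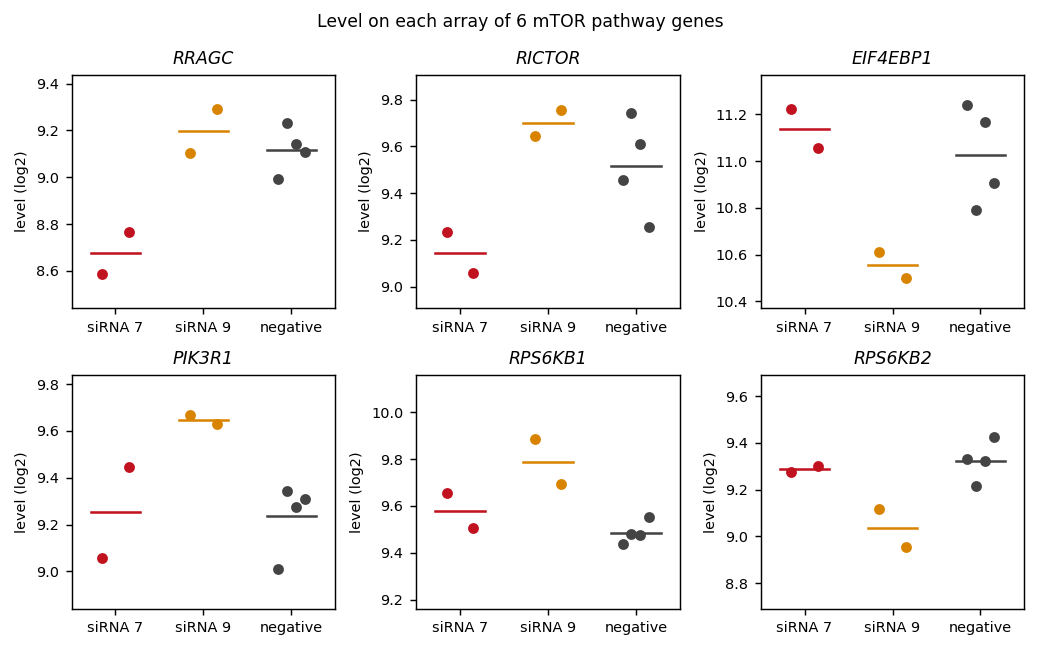
Log2 level (y axis, 1 log2 unit in every panel) of 6 members on each array, with siRNA 7 and siRNA 9 (n = 2 each) left of negative siRNA (n = 4); points are arrays and lines are group means. RRAGC and RICTOR are lowest with siRNA 7, EIF4EBP1 and RPS6KB2 are lowest with siRNA 9, and PIK3R1 and RPS6KB1 are highest with siRNA 9.

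GATOR1 is the complex of NPRL2, NPRL3 and DEPDC5 that switches off RagA and RagB when amino acids are scarce. NPRL3 stood at 10.11 and 10.04 with siRNA 7, at 9.84 and 9.72 with siRNA 9, and at 10.20, 9.82, 10.11 and 10.12 with negative siRNA. The siRNA 9 arrays were lower than both siRNA 7 arrays and than 3 of the 4 negative siRNA arrays, and negative siRNA array 2 lay among them. NPRL3 differed by -0.28 between siRNA 9 and negative siRNA (SE 0.11, limma adjusted p = 0.288), by 0.01 between siRNA 7 and negative siRNA, and by 0.29 between siRNA 7 and siRNA 9 (adjusted p = 0.296). The siRNA 9 difference passed in only 2 of 16 alternatives, 1 of them without negative siRNA array 2 (-0.36, limma adjusted p = 0.0388). It ran from -0.36 to -0.22 with an array left out. NPRL2 differed from negative siRNA by 0.08 with siRNA 7 and -0.12 with siRNA 9, and DEPDC5 by 0.02 and 0.13. Neither passed in any comparison.

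In the mTOR complexes, RICTOR, the defining subunit of complex 2, and RPTOR (Raptor), that of complex 1, had opposite signs in each comparison of a reagent. RICTOR stood at 9.23 and 9.06 with siRNA 7, at 9.64 and 9.75 with siRNA 9, and at 9.46, 9.74, 9.61 and 9.25 with negative siRNA. The siRNA 7 arrays were below all others, although negative siRNA array 4, at 9.25, came next to the higher of them, at 9.23, and the siRNA 9 arrays lay at the level of negative siRNA array 2. RICTOR differed by -0.55 between the reagents (SE 0.15, 95% interval -0.88 to -0.23, limma adjusted p = 0.079), by -0.37 between siRNA 7 and negative siRNA (adjusted p = 0.474) and by 0.18 between siRNA 9 and negative siRNA (adjusted p = 0.617). Between the reagents it passed in 6 of 16 alternatives. Among these were the fits without negative siRNA array 2 (limma adjusted p = 0.0267) or array 4 (0.0426). Leaving out a negative siRNA array changes only the shared estimate of the spread here, not the difference. That difference ran from -0.64 to -0.47 with an array left out.

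RPTOR stood at 9.01 and 9.10 with siRNA 7, at 8.88 and 8.67 with siRNA 9, and at 8.98, 8.83, 8.94 and 9.07 with negative siRNA. Its siRNA 9 arrays were below its siRNA 7 arrays, and both reagents overlapped the negative siRNA arrays. RPTOR differed by 0.28 between the reagents (SE 0.12, limma adjusted p = 0.271), by 0.10 between siRNA 7 and negative siRNA (adjusted p = 0.95) and by -0.18 between siRNA 9 and negative siRNA (adjusted p = 0.501). MTOR, the kinase itself, stood at 10.00 and 10.02 with siRNA 7, at 10.15 and 10.09 with siRNA 9, and at 10.13, 10.21, 10.22 and 10.11 with negative siRNA. The siRNA 7 arrays were the 2 lowest of the 8, with a difference of -0.15 from negative siRNA (95% interval -0.34 to 0.04, adjusted p = 0.80). MLST8, which is shared by both complexes, MAPKAP1 (SIN1), a complex 2 subunit, and AKT1S1 (PRAS40), an inhibitor of complex 1, differed from negative siRNA by -0.06 to 0.04 with either reagent. DEPTOR, an inhibitor of both complexes, differed by -0.09 with siRNA 7 and -0.15 with siRNA 9, and its siRNA 7 arrays, at 9.46 and 8.78, lay on either side of the negative siRNA arrays, which ran from 8.99 to 9.41.

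TSC1 and TSC2 form the complex that inactivates RHEB, the GTPase that switches on complex 1. TSC1 was the 1 member of 32 with all 4 TRIM44 siRNA arrays below all 4 negative siRNA arrays, against 1.26% of all probe sets, and 0 members had them all above (1.59%). It stood at 8.45 and 8.44 with siRNA 7, at 8.47 and 8.36 with siRNA 9, and at 8.51, 8.57, 8.47 and 8.65 with negative siRNA. The groups only just failed to overlap, with siRNA 9 array 1 at 8.4695 and negative siRNA array 3 at 8.4697. The difference of both reagents together from negative siRNA was -0.12 (SE 0.08, 95% interval -0.28 to 0.04, limma adjusted p = 0.981). TSC2 differed by -0.12 with siRNA 7 and -0.08 with siRNA 9, and RHEB by -0.05 and -0.0078. A further RHEB probe set gave 0.06 with siRNA 7 and -0.18 with siRNA 9, so the RHEB probe sets differed in sign with siRNA 7. The brighter probe set represents RHEB here, and whether it reports RHEB or a near-identical copy elsewhere in the genome was not tested.

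Upstream of AKT, PIK3R1 (p85 alpha), the regulatory subunit of PI3K, had the highest difference of all members with siRNA 9. It stood at 9.06 and 9.45 with siRNA 7, at 9.67 and 9.63 with siRNA 9, and at 9.01, 9.34, 9.27 and 9.31 with negative siRNA. The siRNA 9 arrays were above all others, and the siRNA 7 arrays lay apart, 1 near the lowest negative siRNA array and 1 above the highest. PIK3R1 differed by 0.41 between siRNA 9 and negative siRNA (SE 0.13, 95% interval 0.14 to 0.69, limma adjusted p = 0.165), by 0.02 between siRNA 7 and negative siRNA and by -0.40 between siRNA 7 and siRNA 9 (adjusted p = 0.199). The value between the reagents was -0.59 without siRNA 7 array 2 and -0.20 without siRNA 7 array 1.

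PDPK1 (PDK1) phosphorylates AKT and the S6 kinases. It stood at 11.13 and 10.93 with siRNA 7, at 11.23 and 11.14 with siRNA 9, and at 11.21, 11.22, 11.26 and 11.25 with negative siRNA. The siRNA 7 arrays were the 2 lowest of the 8, with a difference of -0.20 from negative siRNA (95% interval -0.40 to -0.01, limma adjusted p = 0.648). The 2 other PDPK1 probe sets gave -0.12 (-0.30 to 0.06) and -0.15 (-0.42 to 0.11), with intervals that include 0. AKT1 stood at 11.52 and 11.45 with siRNA 7, at 11.49 and 11.36 with siRNA 9, and at 11.50, 11.61, 11.56 and 11.60 with negative siRNA. Its siRNA 9 arrays were below all negative siRNA arrays and siRNA 7 array 1 was above the lowest of them, with differences of -0.08 with siRNA 7 and -0.15 with siRNA 9 (adjusted p = 0.53). AKT2 differed by 0.13 with siRNA 7 and -0.05 with siRNA 9, and STK11 (LKB1), the kinase that activates AMPK, by 0.01 and -0.03.

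In the arm of the S6 kinases and the translation factors, 0 of 8 genes had an unadjusted p under 0.05 with siRNA 7 (7.46% of all probe sets did). With siRNA 9 there were 3 of 8 (13.6% of all probe sets). EIF4EBP1 encodes 4E-BP1, which binds the cap-binding protein eIF4E and blocks initiation until complex 1 phosphorylates it. It stood at 11.22 and 11.06 with siRNA 7, at 10.61 and 10.50 with siRNA 9, and at 11.24, 10.79, 11.17 and 10.91 with negative siRNA. The siRNA 9 arrays were below all others, and of the rest negative siRNA array 2 came closest to them. EIF4EBP1 differed by -0.47 between siRNA 9 and negative siRNA (SE 0.13, 95% interval -0.75 to -0.19, limma adjusted p = 0.123), by 0.11 between siRNA 7 and negative siRNA (adjusted p = 0.964) and by 0.58 between siRNA 7 and siRNA 9 (SE 0.15, adjusted p = 0.0674). Without negative siRNA array 2 the siRNA 9 difference was -0.55 (limma adjusted p = 0.0181). The difference between the reagents stayed at 0.58 there and passed (adjusted p = 0.0204), since only the shared estimate of the spread changed. Of 16 alternatives each, EIF4EBP1 passed in 3 with siRNA 9 and in 6 between the reagents. With an array left out, these differences ran from -0.55 to -0.40 and from 0.50 to 0.67. Its paralogue EIF4EBP2 had the opposite signs, -0.05 with siRNA 7 and 0.14 with siRNA 9, and did not pass.

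The S6 kinases RPS6KB1 and RPS6KB2, which phosphorylate ribosomal protein S6, had opposite signs with siRNA 9. RPS6KB1 stood at 9.65 and 9.50 with siRNA 7, at 9.89 and 9.69 with siRNA 9, and at 9.44, 9.48, 9.48 and 9.55 with negative siRNA. The siRNA 9 arrays were the 2 highest of the 8, and siRNA 7 array 2 lay within the negative siRNA range. RPS6KB1 differed by 0.20 with both reagents together (SE 0.09, 95% interval 0.0044 to 0.39, limma adjusted p = 0.912), by 0.09 for siRNA 7 (adjusted p = 0.95) and by 0.30 for siRNA 9 (adjusted p = 0.174).

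RPS6KB2 stood at 9.28 and 9.30 with siRNA 7, at 9.12 and 8.96 with siRNA 9, and at 9.33, 9.21, 9.32 and 9.43 with negative siRNA. The siRNA 9 arrays were below all others, and the siRNA 7 arrays lay within the negative siRNA range. RPS6KB2 differed by -0.29 with siRNA 9 (SE 0.09, limma adjusted p = 0.193), by -0.03 with siRNA 7 (adjusted p = 0.998) and by 0.25 between siRNA 7 and siRNA 9 (adjusted p = 0.285). RPS6, the substrate, differed by -0.08 with siRNA 7 and 0.05 with siRNA 9, and RPS6KA1 (RSK1), a kinase of the ERK pathway that also phosphorylates S6 and TSC2, by 0.0064 and 0.09.

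Of the translation factors, EIF4B, a cofactor of the initiation helicase and an S6 kinase substrate, stood at 12.89 and 12.84 with siRNA 7, at 12.70 and 12.73 with siRNA 9, and at 12.74, 12.74, 12.75 and 12.73 with negative siRNA. Both siRNA 7 arrays were above all other arrays, and the negative siRNA arrays covered only 0.02, the narrowest range of any member. The difference with siRNA 7 was 0.12 (SE 0.08, 95% interval -0.06 to 0.30, limma adjusted p = 0.863), and the 2 other EIF4B probe sets gave 0.25 and 0.16. With siRNA 9 the 3 probe sets gave -0.02, -0.06 and 0.13, so they differed in sign. EIF4E, the cap-binding protein, differed by 0.14 with siRNA 7 and 0.03 with siRNA 9; its mean of 6.42 with negative siRNA, like the 6.75 of RRAGB, lay below the lowest array median of 6.78, so both were dim. Where EIF4B, PDPK1 and RHEB have near-identical copies elsewhere in the genome, their probe sets may report those copies too. This includes the brightest probe set, which represents the gene in the counts and figures.

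Counts of members without overlap between groups were read against all probe sets. Both siRNA 7 arrays lay below all negative siRNA arrays for 5 members (MTOR, RICTOR, TSC1, RRAGC and PDPK1), 15.6% of the members against 7.99% of all probe sets, and above them for 2 (NPRL2 and EIF4B; 6.38% of all probe sets). Both siRNA 9 arrays lay below all negative siRNA arrays for 4 members (TSC1, AKT1, RPS6KB2 and EIF4EBP1; 9.23% of all probe sets) and above them for 4 (DEPDC5, PIK3R1, RPS6KB1 and EIF4EBP2; 13.4%). The siRNA 7 arrays lay above both siRNA 9 arrays for 9 members, 28.1% against 19.9% of all probe sets, and below them for 11, 34.4% against 28.7%.

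Other genes of the pathway were listed by role, with earlier results of these data known. Among 28 measured growth factor and energy inputs, SGK1 passed with siRNA 9, against 0.334% of all probe sets higher, and SGK1 and PRKAA2 passed between the reagents, against 1.41% of all probe sets lower. SGK1, an AKT-like kinase activated through complex 2 and PDK1, stood at 6.55 and 6.39 with siRNA 7, at 7.01 and 6.97 with siRNA 9, and at 6.39, 6.52, 6.36 and 6.44 with negative siRNA. Both siRNA 9 arrays were above all others, at levels near the array medians. SGK1 rose by 0.56 with siRNA 9 against negative siRNA (SE 0.09, limma adjusted p = 0.0182) and differed by -0.52 between siRNA 7 and siRNA 9 (adjusted p = 0.0315).

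These SGK1 calls were lost with the replicate number as a block, at adjusted p = 0.129 with siRNA 9 and 0.0519 between the reagents. The siRNA 9 call was also lost without siRNA 9 array 1 (0.297) or array 2 (0.244) and without negative siRNA array 1 (0.0587) or array 3 (0.0772). The SGK1 call between the reagents was lost without siRNA 7 array 1 (0.0609) or array 2 (0.211), siRNA 9 array 1 (0.264) or array 2 (0.187), or negative siRNA array 3 (0.063). Testing all probe sets ended both SGK1 calls, at 0.0836 with siRNA 9 and 0.099 between the reagents.

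PRKAA2, a catalytic subunit of AMPK, the energy sensor that restrains complex 1, stood at 9.82 and 9.85 with siRNA 7, at 10.45 and 10.51 with siRNA 9, and at 10.03, 10.38, 10.19 and 10.07 with negative siRNA. The siRNA 7 arrays were below and the siRNA 9 arrays above all negative siRNA arrays. PRKAA2 differed by -0.64 between siRNA 7 and siRNA 9 (SE 0.12, limma adjusted p = 0.0262). The call was lost without siRNA 7 array 1 (0.0996) or array 2 (0.12), siRNA 9 array 1 (0.20) or array 2 (0.198), or negative siRNA array 3 (0.0511), and when all probe sets were tested (0.0987).

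No gene passed in any comparison among 18 other nutrient sensing genes, 16 other downstream effectors, 12 FOXO factors and targets and 12 TFEB lysosome targets. At an unadjusted p under 0.05 between siRNA 7 and siRNA 9, limma gave 1 of 18, 2 of 16, 4 of 12 and 0 of 12 of these, against 15.7% of all probe sets. In the nutrient sensing list, SESN1 (Sestrin 1), a leucine-sensing family member, differed by 0.36 with siRNA 9 (adjusted p = 0.156) and by -0.50 between siRNA 7 and siRNA 9 (adjusted p = 0.0582). DDIT4 (REDD1), a stress-induced inhibitor that acts through TSC, is on the list of growth factor and energy inputs. It had a difference of -0.21 for siRNA 7 (limma adjusted p = 0.923), whose arrays lay apart at 10.45 and 9.68. For siRNA 9 the difference was -0.76 (adjusted p = 0.0748), and the negative siRNA arrays ran from 10.09 to 10.45. MITF, which binds the E-box and is held in the cytoplasm by complex 1 through the Rag proteins, had a difference of -0.50 for siRNA 7 (adjusted p = 0.155) and of -0.28 for siRNA 9 (adjusted p = 0.291). Its levels of 6.44, 6.62, 6.84 and 6.67 on the TRIM44 siRNA arrays lay near the array medians, against 6.83 to 7.13 with negative siRNA.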

How the data were processed

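RNA of HSC39 cells was labelled and hybridised to Affymetrix Human Gene 1.0 ST arrays, per the labels' protocols and the platform annotation. The authors deposited log2 levels of 32321 probe sets on each array. Ranked values of different arrays lay within 0.181 of each other, as after a normalization between arrays; which one, and the genome build, is not given in the sources used here, and limma is named per the submitters' processing notes. No background measure was used, and precision is limited by having 8 arrays.

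The 19158 probe sets with 1 symbol in the series' probe annotation were tested (1388 with several symbols and 11775 with none were left out), with the brightest probe set representing a gene. Of the gene IDs, 19128 were found in RefSeq, with 0 symbols changed. TRIM44 siRNA was set against negative siRNA in a 2-group limma fit (lmFit, eBayes), and each reagent against negative siRNA, and siRNA 7 against siRNA 9, in a fit of 3 group means, with Benjamini-Hochberg adjustment over all 19158 probe sets and a threshold of 0.05. Intervals are 95% and not adjusted. TRIM44 also had an exact permutation test.

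The members, the lists and the tests were chosen with earlier results of these data known. Values on every array are given for members past the threshold, members whose 4 TRIM44 siRNA arrays did not overlap the negative siRNA arrays, and the 6 of smallest unadjusted p in each comparison; of other lists, up to 4 genes by smallest unadjusted p could be named. Promoter windows are from RefSeq, build GRCh38.p14. The fits were tested on simulated data. R 4.3.3, limma 3.58.1, statmod 1.5.0, Python 3.11.15, SciPy 1.17.1 and matplotlib 3.10.9 were used. The alternatives rescaled the arrays (by quantiles, or by their medians), kept only the upper 50% of probe sets by mean or took all of them, used array weights or a trended and robust prior, added the replicate number as a block, changed the model (3 group means, the reagent as a random block, only the arrays compared), or left out each array in turn.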

Additional observations from a re-analysis of the deposited data

Results flagged for a closer look

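RRAGC differed between siRNA 7 and siRNA 9 by -0.52 on the log2 scale (limma adjusted p = 0.0476). Both siRNA 7 arrays lay below both siRNA 9 arrays, as for 28.7% of all probe sets. RRAGC did not pass against negative siRNA with siRNA 7 (adjusted p = 0.193) or siRNA 9 (0.835). Among the other pathway genes a difference between the reagents was called for PRKAA2, at -0.64 (limma adjusted p = 0.0262), and SGK1, at -0.52 (adjusted p = 0.0315). The arrays that end each of these calls are named with the results.

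LAMTOR2 on siRNA 7 array 1, at 7.99, stood apart from the other 3 TRIM44 siRNA arrays, at 8.10 to 8.11. EIF4EBP2 on negative siRNA array 1, at 11.45, stood apart from the other 3 negative siRNA arrays, at 11.53. These were the 2 cases among 106 groups of 4 arrays examined, where chance gives about 1 in 20 groups.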

How the results depend on the processing

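Alternatives were run for 27 differences, those of the members with values on every array in the comparisons that chose them and the SGK1 and PRKAA2 calls. None of these changed sign. Alternatives that change only the estimate of the spread or the probe sets tested leave a difference as it is, so they could not change its sign. The other members' differences were not rerun. The count of members past the threshold was 0 with TRIM44 siRNA and 0 with siRNA 7 under every alternative, each array left out included. With siRNA 9 it was 0, but 5 with array weights, 1 with the trended and robust prior and 0 to 2 with an array left out (2 without negative siRNA array 2). Between siRNA 7 and siRNA 9 it was 1, but 0 with all probe sets or median centring, 2 with the replicate block, 3 with array weights, only the arrays compared, the trended prior or the upper 50%, and 0 to 3 with an array left out. RRAGC kept its call in 7 of 16 alternatives (adjusted p = 0.0182 to 0.326), while RICTOR and EIF4EBP1 passed between the reagents in 6 of 16 each.

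The number of probe sets called by limma with TRIM44 siRNA was 1, but 4 with 3 group means, 33 with array weights, 2 with the trended prior or the upper 50%, 0 with all probe sets, median centring, the replicate block or the random block (1467, 1054, 733 and 757 at an unadjusted p under 0.05), and 0 to 2 with an array left out. With siRNA 7 it was 13, but 70 with array weights, 83 with the trended prior, 64 with the upper 50%, 1 with median centring or only the arrays compared, 0 with all probe sets or the replicate block (1826 and 1665 unadjusted), and 1 to 35 with an array left out. With siRNA 9 it was 177, but 28 with all probe sets, 2082 with array weights, 44 with the replicate block, 405 with the trended prior, 390 with the upper 50%, and 0 to 1067 with an array left out. Between the reagents it was 428, but 8 with all probe sets, 1063 with array weights, 807 with only the arrays compared, 792 with the trended prior, 703 with the upper 50%, and 0 to 1050 with an array left out. With siRNA 9 and between the reagents, the counts of 0 came without siRNA 9 array 1 (1449 and 1931 unadjusted) or array 2 (1543 and 2003), and those of 1067 and 1050 without negative siRNA array 2. The cause was not tested.

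The median member difference between the reagents was 0.02, but -0.0115 with the upper 50% and -0.0497 to 0.071 with an array left out; with siRNA 7 it was -0.0375 to 0.0257 and with siRNA 9 -0.0648 to -0.0014. TRIM44 was lower by -0.87 to -0.73 with an array left out, each at an exact permutation p of 0.0571, the smallest that such a design allows. Arrays of the same number shared only 2 numbers across groups, and their deviations correlated at 0.268 and 0.306 between siRNA 7 and negative siRNA and at 0.058 and 0.131 between siRNA 9 and negative siRNA, so the replicate block is given as an alternative only; it ended the SGK1 calls and kept those of RRAGC and PRKAA2. Where 1 array of a reagent was left out, the lone array was assumed to vary like the other groups. SGK1 was not among the upper 50% of probe sets.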

Other observations

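The probe sets that PRR5 and TBC1D7 share with other symbols gave no call in any comparison, while LAMTOR1 and PIK3CA were not tested. These shared probe sets were tested in the alternative that took all 32321 probe sets, under which RRAGC also lost its call. Their adjusted p-values are therefore not on the footing of the main fits. The probe set shared by PRR5, a complex 2 subunit, with ARHGAP8 and their readthrough transcript had a log2 difference of 0.13 with siRNA 7 and -0.04 with siRNA 9 (lowest limma adjusted p = 0.656, between the reagents). That of TBC1D7, the third TSC complex subunit, shared with a readthrough transcript, had -0.10 with siRNA 7 and 0.08 with siRNA 9 (lowest adjusted p = 0.514, between the reagents).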
